A study of Mus musculus with 12 samples.

Results

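The 9 genes followed here encode the molecules with which a neutrophil holds on to vessel walls, to matrix and to other cells, and they were taken by symbol from the 55335 genes listed for each of 12 RNA-seq libraries of mouse neutrophils. They are the integrin chains Itgam (CD11b), Itgal (CD11a), Itgax (CD11c) and Itgb2 (CD18), the integrin chains Itga4 (CD49d) and Itgb1 (CD29), the selectin ligand Selplg (PSGL-1), the integrin ligand Icam1, and the hyaluronan receptor Cd44. The genes were picked by name, with earlier results of these data known. No selectin is among the 9.

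The study asked how loss of the chemokine receptor Cxcr2 alters neutrophils in a mammary tumor model. The libraries fall into 3 groups of 4, all from FVB mice 10 weeks old in an SOPF (specific and opportunistic pathogen free) facility. PyMT TANs are tumor-associated neutrophils from mammary tumors of mice with the PyMT transgene, the polyoma middle T oncogene, and PyMT-Cxcr2-/- TANs come from tumors of mice that carry the same transgene and also lack Cxcr2 in every cell, not in neutrophils alone. WT BM neutrophils come from the bone marrow of WT mice, with neither the transgene nor the deletion. Tumors were digested with enzymes and marrow was not, and neutrophils of normal mammary gland or of marrow from tumor-bearing mice were not analysed here. Tissue, tumor and digestion can therefore not be told apart in any comparison with marrow. Cells of all groups were enriched with a CD11b antibody and then sorted as CD45+ CD11b+ Ly6G+ F4/80- cells, so that the protein product of Itgam, which reaches the surface only as a dimer with that of Itgb2, was itself used to collect the cells. The labels number 4 replicates per group and do not say that each is a separate mouse. The p-values measure only the spread between these libraries.

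An integrin is a dimer of an alpha and a beta chain, and the alpha chain sets which ligand is bound. In the adhesion cascade of leukocytes, selectins and Selplg give tethering and rolling, Itgal with Itgb2 (LFA-1) and Itgam with Itgb2 (Mac-1) give firm arrest and crawling on Icam1 of the endothelium, and Itga4 with Itgb1 (VLA-4) binds Vcam1 and fibronectin. Cd44 binds hyaluronan and, on neutrophils, E-selectin. Icam1 is best known as a ligand on endothelium, and neutrophils can carry it as well. Mature neutrophils raise CD11b at the surface from stores in granules, so its transcript and its surface level are separate quantities.

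Between 25032704 and 51351569 reads per library were assigned to genes. The share of records that matched no gene was 32.0% to 42.4% in WT BM neutrophils, 39.9% to 52.5% in PyMT TANs and 45.6% to 48.7% in PyMT-Cxcr2-/- TANs, and its part in the comparisons with marrow was not tested. Cxcr2 was at 1030 to 1536 CPM (the reads of a gene relative to all reads assigned in the library, with TMM scaling factors over the 12 libraries) in PyMT TANs, 8.97 to 10.1 CPM in PyMT-Cxcr2-/- TANs and 1818 to 2250 CPM in WT BM neutrophils, as the labels say. The summed level of 7 neutrophil markers was 71819 to 94253 CPM in WT BM neutrophils. It was 9848 to 15618 CPM in PyMT TANs and 16586 to 27190 CPM in PyMT-Cxcr2-/- TANs. Of the 7, 6 fell in each TAN group against marrow, beside 23.2% and 25.1% of all genes tested. Cxcr2 is in the sum and among these 6, and the deletion itself fixes its fall in PyMT-Cxcr2-/- TANs. The marker that did not pass the thresholds was Csf3r, at 2938 to 5449 CPM in all libraries, while Ly6g, the gene of a protein used in the sort, was at 20.01 to 48.4 CPM in PyMT TANs, 106 to 183 CPM in PyMT-Cxcr2-/- TANs and 477 to 655 CPM in WT BM neutrophils. The summed level of 8 macrophage markers was 1327 to 2634 CPM in PyMT TANs, 1332 to 2205 CPM in PyMT-Cxcr2-/- TANs and 237 to 331 CPM in WT BM neutrophils, although F4/80+ cells were left out of the sort. 7 markers of mammary epithelium summed to 32.7 to 252 CPM, 57.9 to 187 CPM and 0.0599 to 0.400 CPM in the same order. These marker values stand beside every comparison with marrow given below, and their part in the results was not tested.

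The coverage of each gene by the annotation matters for Itgam. Itgam (chr7:128062640-128118491, + strand, GRCm38/mm10, GENCODE M21) shares 3450 of its 5024 exonic bases with the predicted gene Gm49368, which lies on the same strand. A read that lies in exons of both genes is usually given to neither by HTSeq, whose settings are not given in the sources used here, and Gm49368 itself had at most 202 counts in a library. Of the 1574 bases of Itgam that are not shared, 1186 lie in a single block at its 3′ end (chr7:128117306-128118491). The CPM of Itgam may therefore understate its level, and levels per kilobase below use only exonic bases not shared on the same strand. Itga4 and Icam1 overlap an opposite-strand gene in 1124 and 511 exonic bases, and neither of those genes, Cerkl and Gm47079, exceeded 2.7 CPM in any library.

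Against marrow, 6 of the 9 genes changed past both thresholds in each TAN group, a Benjamini-Hochberg adjusted p under 0.05 over all genes tested with edgeR's quasi-likelihood test and a change of 1.5-fold or more. In PyMT TANs, Itgax, Itga4, Itgb1 and Icam1 rose and Itgam and Itgb2 fell, while 30.1% of the 17153 genes tested rose and 23.2% fell (53.3% either way). In PyMT-Cxcr2-/- TANs the same 4 rose and the same 2 fell, beside 34.4% and 25.1% of the 17732 genes tested (59.5% either way). The libraries of PyMT TANs and marrow did not overlap for 4 genes that were higher and 3 that were lower, as for 28.4% and 29.7% of all genes (58.2% either way). Those of PyMT-Cxcr2-/- TANs and marrow did not overlap for 4 higher and 2 lower genes, as for 32.5% and 33.3% of all genes (65.8% either way). These comparisons share the 4 WT BM libraries. In bulk libraries, fewer cells of a type and less RNA per cell cannot be told apart. Between the TAN groups, 1 gene of the 9, Icam1, fell in PyMT-Cxcr2-/- TANs and 0 rose with edgeR, beside 0.596% and 1.38% of the 18463 genes tested (1.98% either way). At an unadjusted edgeR p under 0.05, 3 genes, Itgam, Itgb2 and Selplg, were higher and 3, Icam1, Itgax and Itgb1, were lower. The share of all genes at this unadjusted limit was not computed. DESeq2 put 2 of the 9 higher and 1 lower past both thresholds, beside 1034 of 13500 genes either way. The median log2 fold change of the 9 genes was -0.22 in PyMT TANs and 0.15 in PyMT-Cxcr2-/- TANs against marrow, where all genes tested had a median of 0.09 in both, and it was 0.17 between the TAN groups, beside -0.07 over all genes. All 9 genes passed the filter on low counts in the 3 comparisons.

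**Figure D1:**
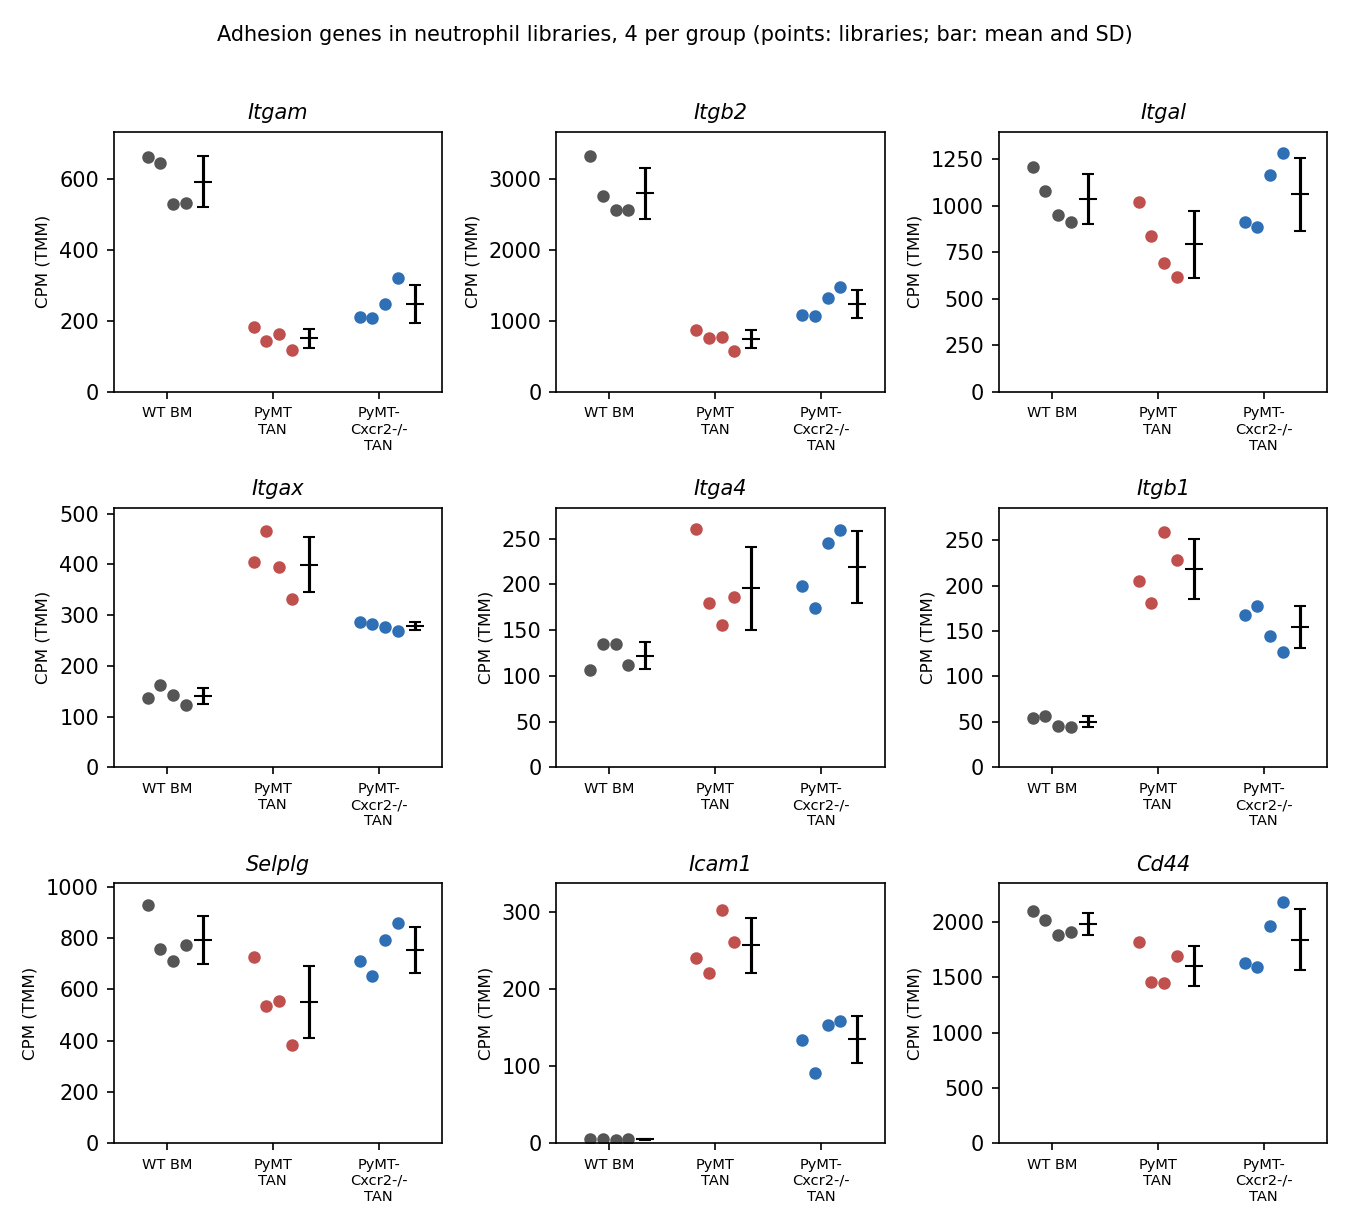
Level of each of the 9 genes in CPM (linear axis from 0) in WT BM neutrophils, PyMT TANs and PyMT-Cxcr2-/- TANs, with 1 point per library and the mean and SD of 4 libraries as a bar. Itgam and Itgb2 were highest in marrow, Itgax, Itgb1 and Icam1 were highest in PyMT TANs with no overlap between any of the groups, and the groups overlapped for Itgal and Selplg.

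The leading gene was Icam1 (chr9:21015985-21028817, + strand, a ligand of LFA-1 and Mac-1). Its level in marrow was 5.12, 5.17, 4.06 and 5.11 CPM, from 142 to 183 counts per library. In PyMT TANs it was 239.9, 221, 303 and 261 CPM, and in PyMT-Cxcr2-/- TANs 134, 91.4, 154 and 159 CPM. Every TAN library was far above every marrow library, and every library without Cxcr2 lay below every PyMT TAN library. Icam1 rose by 5.80 on the log2 scale in PyMT TANs against marrow (SE 0.17, edgeR adjusted p = 8.4e-09), a 55.9-fold difference, and by 4.91 in PyMT-Cxcr2-/- TANs (SE 0.18, edgeR adjusted p = 3.4e-10), a 29.98-fold difference.

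Icam1 was also the gene of the 9 that changed past both thresholds between the TAN groups. Without Cxcr2 its level was 1.95-fold lower (log2 fold change -0.97, SE 0.19, 95% interval -1.37 to -0.56, edgeR adjusted p = 0.025). The call rests on all the libraries together. With 1 library left out in turn, it was kept without PyMT replicate 1 or PyMT-Cxcr2-/- replicate 2 and lost without any of the other 6, with adjusted p from 0.032 to 0.072 and log2 fold changes from -1.03 to -0.81. Without the 4 TAN libraries with the highest epithelial marker levels, 2 of each group, the value was -0.57 (edgeR adjusted p = 0.14), while against marrow it was 5.60 and 5.15. Of the markers listed for other cells, 0 of 8 macrophage genes and 0 of 7 epithelial genes passed the thresholds between the TAN groups with edgeR or with DESeq2, and 0 had an unadjusted p under 0.05. Cd3d of the T and NK cell list rose (log2 fold change 1.16, edgeR adjusted p = 0.040). Trac, the other gene of this list tested, was at -0.52 (edgeR adjusted p = 0.87), with a low average log2 CPM of -1.22. Of the genes with counts too low to test, Cd3g and Klrb1c were higher without Cxcr2 with no overlap, and Cd3e and Ncr1 overlapped. The list summed to 9.86 to 17.6 CPM in PyMT TANs, 22.96 to 41.8 CPM in PyMT-Cxcr2-/- TANs and 210 to 244 CPM in marrow. Against marrow, Cd3d fell by 4.09 on the log2 scale in PyMT TANs. Whether T or NK cells differed between the TAN groups was not tested. At an unadjusted p under 0.05 the fibroblast genes Col1a2 and Col3a1 were higher and the erythroid genes Hba-a1 and Hbb-bs lower without Cxcr2. The TAN groups overlapped for each of these genes. The erythroid list summed to 2.23, 2.21, 86.4 and 0.616 CPM in PyMT TANs and 1.09 to 1.24 CPM without Cxcr2, so its difference rests on PyMT replicate 3. Siglecf, listed with eosinophils, fell with Icam1, from 97.2 to 175 CPM in PyMT TANs to 46.4 to 64.3 CPM in PyMT-Cxcr2-/- TANs, whereas the eosinophil granule genes Prg2 and Epx had at most 6 counts in any TAN library.

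A stretch of the Icam1 promoter is shown because Icam1 had the widest range of the 9 genes and is a textbook target of NF-kB. It is the RefSeq promoter on GRCm38.p6, chr9:21015690-21015969 on the + strand, from 250 bases before the RefSeq start to 30 bases after it. The motifs GGAAATTCC (NF-kB) and TATAAA (bound by the TATA-binding protein), searched on both strands, are in capitals.
Icam1: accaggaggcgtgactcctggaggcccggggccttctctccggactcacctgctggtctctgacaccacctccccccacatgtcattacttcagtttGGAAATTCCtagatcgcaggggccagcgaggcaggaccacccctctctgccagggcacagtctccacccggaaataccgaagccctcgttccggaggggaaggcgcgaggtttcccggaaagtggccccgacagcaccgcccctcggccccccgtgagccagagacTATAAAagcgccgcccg
The GGAAATTCC begins 153 bases before the RefSeq start, and the TATAAA begins 13 bases after it and 32 bases before the start that GENCODE gives. GGAAATTCC is found in 104 of 32851 RefSeq promoter windows of 300 bases (0.317%) and TATAAA in 4473 (13.6%). Of the 9 genes, 6 had such a window, and among these GGAAATTCC and TATAAA were present in that of Icam1 alone. The motifs do not overlap. A match is a description of the letters in this window, and binding was not measured.

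The chains of Mac-1, Itgam and Itgb2, fell together in the tumor. Itgam was at 664, 647, 529 and 534 CPM in marrow, 182, 144, 162 and 119 CPM in PyMT TANs, and 210.2, 207, 248 and 322 CPM in PyMT-Cxcr2-/- TANs. The 3 groups did not overlap, with marrow highest and PyMT TANs lowest. Against marrow Itgam was 3.70-fold lower in PyMT TANs (log2 fold change -1.89, SE 0.15, edgeR adjusted p = 1.6e-06) and 2.21-fold lower in PyMT-Cxcr2-/- TANs (-1.15, SE 0.14, edgeR adjusted p = 1.0e-05). The cells had been collected on the protein itself in every group. Of the 7 neutrophil markers, 6 also fell in both comparisons, among them Cxcr2, which PyMT-Cxcr2-/- mice lack. S100a8 fell by 2.94 and 1.89 and Mmp8 by 4.31 and 2.42 on the log2 scale. Over all genes tested, 23.2% and 25.1% fell. The part of these markers in the fall of Itgam and Itgb2 was not tested.

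Itgb2 (chr10:77530252-77565708, + strand), the beta chain that Itgam, Itgal and Itgax share, was at 3319.7, 2755, 2559 and 2558 CPM in marrow, 868, 757, 774 and 579 CPM in PyMT TANs, and 1075, 1062, 1324 and 1479 CPM in PyMT-Cxcr2-/- TANs. Its order of groups was that of Itgam, again without overlap. It was 3.56-fold lower in PyMT TANs (log2 fold change -1.83, SE 0.15, edgeR adjusted p = 2.2e-06) and 2.09-fold lower in PyMT-Cxcr2-/- TANs (-1.06, SE 0.14, edgeR adjusted p = 2.0e-05) than in marrow.

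Between the TAN groups neither chain passed the thresholds. PyMT-Cxcr2-/- TANs were at 1.59 times the Itgam level (log2 fold change 0.67, SE 0.18, edgeR adjusted p = 0.085) and 1.62 times the Itgb2 level (0.70, SE 0.17, edgeR adjusted p = 0.059) of PyMT TANs. These are 2 genes of the 9 whose TAN groups did not overlap with the level higher without Cxcr2, beside 6.89% of all genes tested. The call on both turns with the method, since DESeq2, a fit without the filter on low counts and a fit of all 12 libraries each put both past the thresholds. In the same direction moved the neutrophil markers, of which 5 of 7 rose, beside 1.38% of all genes tested. The 1 that fell was Cxcr2, the deleted gene.

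The Itgam promoter is shown because its gene and Itgb2 fell together, and because PU.1, a factor known to act at myeloid promoters, has the core GAGGAA. It is the RefSeq promoter on GRCm38.p6, chr7:128062390-128062669 on the + strand, from 250 bases before the RefSeq start to 30 after it, with GAGGAA on either strand in capitals.
Itgam: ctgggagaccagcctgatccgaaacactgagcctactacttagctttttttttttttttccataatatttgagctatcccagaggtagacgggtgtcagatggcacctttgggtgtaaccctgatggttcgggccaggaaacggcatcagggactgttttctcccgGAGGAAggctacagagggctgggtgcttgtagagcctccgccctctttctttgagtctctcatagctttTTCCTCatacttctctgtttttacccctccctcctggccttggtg
GAGGAA begins 84 bases before the start on the strand of the gene, and its reverse complement 15 bases before the start. A match on either strand was present in 9289 of 32851 windows (28.3%). The windows of Itgb1 and Cd44 also held it, and those of Itgax, Itga4 and Icam1 did not. Itgb2, Itgal and Selplg are named without a sequence.

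Against marrow, where its beta chain fell, Itgal (chr7:127296260-127335138, + strand), the alpha chain of LFA-1, did not pass the thresholds. It was at 1209, 1082, 950.0 and 913 CPM in marrow, 1022, 839.8, 690.4 and 618 CPM in PyMT TANs, and 911, 885, 1167 and 1286 CPM in PyMT-Cxcr2-/- TANs. All 3 groups overlapped. The log2 fold changes were -0.31 (SE 0.16) and 0.15 (SE 0.14) against marrow and 0.39 (SE 0.19) between the TAN groups, with edgeR adjusted p of 0.12, 0.36 and 0.35. The 95% intervals of these differences ran from -0.67 to 0.04, from -0.16 to 0.46 and from -0.01 to 0.80.

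Itgax (chr7:128129547-128150657, + strand), the gene of the alpha chain CD11c, moved opposite to Itgam, its neighbor on the chromosome. It was at 136, 162, 143 and 123 CPM in marrow, 404, 466, 396 and 333 CPM in PyMT TANs, and 287, 282, 277 and 269 CPM in PyMT-Cxcr2-/- TANs. The 3 groups did not overlap, and the 4 libraries without Cxcr2 lay close together, with an SD of 7.62 CPM around a mean of 279 CPM. Itgax was 3.01-fold higher in PyMT TANs (log2 fold change 1.59, SE 0.14, edgeR adjusted p = 2.7e-06) and 2.15-fold higher in PyMT-Cxcr2-/- TANs (1.11, SE 0.10, edgeR adjusted p = 7.0e-07) than in marrow. Between the TAN groups the log2 fold change was -0.56 (SE 0.13, edgeR adjusted p = 0.060), short of both thresholds. CD11c is also carried by macrophages and dendritic cells. The summed macrophage markers were at 1327, 2179, 2634 and 1833 CPM in the same 4 PyMT TAN libraries and at 2180.4, 2205, 1691 and 1332 CPM in those without Cxcr2, and their part in the level of Itgax was not tested.

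Of the VLA-4 chains, Itgb1 (chr8:128685654-128733200, + strand) had the larger change. It was at 54.2, 56.5, 45.4 and 44.9 CPM in marrow, 205, 181, 259 and 228 CPM in PyMT TANs, and 168, 178, 145 and 127 CPM in PyMT-Cxcr2-/- TANs. Marrow lay below both TAN groups, and each library without Cxcr2 lay below each PyMT TAN library. Itgb1 was 4.60-fold higher in PyMT TANs (log2 fold change 2.20, SE 0.15, edgeR adjusted p = 5.5e-07) and 3.34-fold higher in PyMT-Cxcr2-/- TANs (1.74, SE 0.13, edgeR adjusted p = 9.4e-08) than in marrow. The TAN groups differed by -0.54 on the log2 scale (SE 0.16, edgeR adjusted p = 0.11), which did not pass. Itgax, Itgb1 and Icam1 are the 3 genes of the 9 whose level was lower without Cxcr2 with no overlap between the TAN groups, beside 5.05% of all genes tested.

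Itga4 (chr2:79255426-79333123, + strand) was at 107, 135, 134 and 112 CPM in marrow, 260.1, 180.1, 155 and 186 CPM in PyMT TANs, and 198, 175, 245 and 259 CPM in PyMT-Cxcr2-/- TANs. Both TAN groups lay above marrow and overlapped each other. It was 1.69-fold higher in PyMT TANs (log2 fold change 0.76, SE 0.16, edgeR adjusted p = 0.0014) and 1.95-fold higher in PyMT-Cxcr2-/- TANs (0.96, SE 0.13, edgeR adjusted p = 2.4e-05) than in marrow. With the trends of each library with GC content and gene length removed, the values were 0.37 and 0.54, both under 1.5-fold, and the calls were lost. The exons of Itga4 are 41.1% GC and 13978 bases long.

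**Figure D2:**
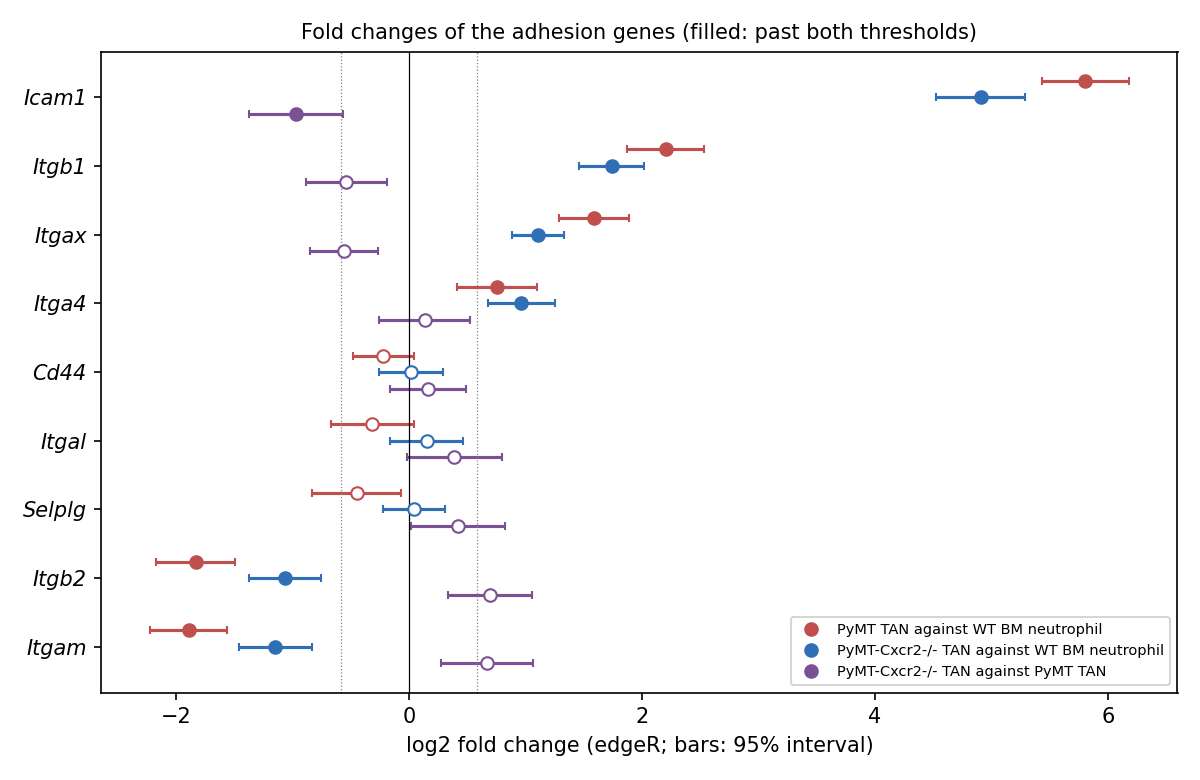
Log2 fold change of each of the 9 genes in the 3 comparisons, with bars for the 95% interval from edgeR, dotted lines at 1.5-fold and filled points where both thresholds were passed. Icam1, Itgb1, Itgax and Itga4 are filled on the higher side against marrow, Itgb2 and Itgam on the lower side, and between the TAN groups only Icam1 is filled.

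Selplg and Cd44, which act in rolling, did not pass both thresholds in any of the 3 comparisons. Selplg (chr5:113818536-113832644, - strand) was at 929, 755, 710.2 and 773 CPM in marrow, 726, 535, 555 and 384 CPM in PyMT TANs, and 712, 652, 792 and 858 CPM in PyMT-Cxcr2-/- TANs. The groups overlapped. Its log2 fold change in PyMT TANs against marrow was -0.45 (SE 0.17, edgeR adjusted p = 0.045), under 1.5-fold, and it was 0.05 in PyMT-Cxcr2-/- TANs (SE 0.12, edgeR adjusted p = 0.75) and 0.42 between the TAN groups (SE 0.18, edgeR adjusted p = 0.30). Without PyMT replicate 1, the change against marrow was -0.61 and passed both thresholds, and it passed also with GC content and length adjusted, at -0.61.

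Cd44 (chr2:102811141-102901665, - strand) was at 2098, 2023, 1883 and 1915 CPM in marrow, 1818, 1457, 1453 and 1694 CPM in PyMT TANs, and 1633, 1593, 1964 and 2181 CPM in PyMT-Cxcr2-/- TANs. PyMT TANs lay below marrow without overlap, and the log2 fold change was -0.22 (SE 0.12, edgeR adjusted p = 0.13). In PyMT-Cxcr2-/- TANs it was 0.01 (95% interval -0.26 to 0.29, edgeR adjusted p = 0.92), and between the TAN groups 0.17 (-0.16 to 0.49, edgeR adjusted p = 0.70).

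Ratios within a library do not depend on the scaling between libraries. They were formed from counts per kilobase and compared with two-sided exact permutation tests of 4 against 4 libraries, whose smallest possible p is 0.0286, with Benjamini-Hochberg adjustment over the 12 tests reported. The ratio of Itgal to Itgam was 0.40 to 0.44 in marrow, 1.02 to 1.40 in PyMT TANs and 0.96 to 1.13 in PyMT-Cxcr2-/- TANs. The log2 differences from marrow were 1.57 and 1.30 (exact permutation p = 0.0286, adjusted 0.0381 for both), and between the TAN groups -0.27 (exact permutation p = 0.11). The sizes of the ratios of Itgal and Itgax to Itgam rest on the unshared bases of Itgam, and their log2 differences do not. On total exon length, Itgal was at 158 and Itgam at 118 CPM per kilobase in marrow, so that Itgal was the higher there.

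The ratio of Itgax to Itgam had the largest differences of the 4. It was 0.07 to 0.09 in marrow, 0.73 to 1.06 in PyMT TANs and 0.27 to 0.45 in PyMT-Cxcr2-/- TANs, with no overlap. The log2 differences were 3.48 and 2.27 against marrow and -1.21 between the TAN groups (exact permutation p = 0.0286, adjusted 0.0381 for each). The ratio of Itgb2 to the sum of Itgam, Itgal and Itgax was 1.48 to 1.72 in marrow, 0.78 to 0.87 in PyMT TANs and 1.06 to 1.10 in PyMT-Cxcr2-/- TANs. Its log2 differences were -0.999 and -0.596 against marrow and 0.40 between the TAN groups (exact permutation p = 0.0286, adjusted 0.0381 for each). On the total exon length of Itgam, the differences of this ratio were -1.52, -1.02 and 0.53. Itgad, listed with the other alpha chains, was not in the sum. It rose by 1.56 (SE 0.24) in PyMT TANs and 1.06 (SE 0.15) in PyMT-Cxcr2-/- TANs against marrow on the log2 scale.

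The ratio of Itga4 to Itgb1 was 0.58 to 0.86 in marrow, 0.18 to 0.37 in PyMT TANs and 0.29 to 0.60 in PyMT-Cxcr2-/- TANs. It differed from marrow by -1.45 on the log2 scale in PyMT TANs (exact permutation p = 0.0286, adjusted 0.0381) and by -0.78 in PyMT-Cxcr2-/- TANs, which overlapped marrow (exact permutation p = 0.057, adjusted 0.069). The TAN groups differed in it by 0.67 (exact permutation p = 0.14, adjusted 0.14).

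**Figure D3:**
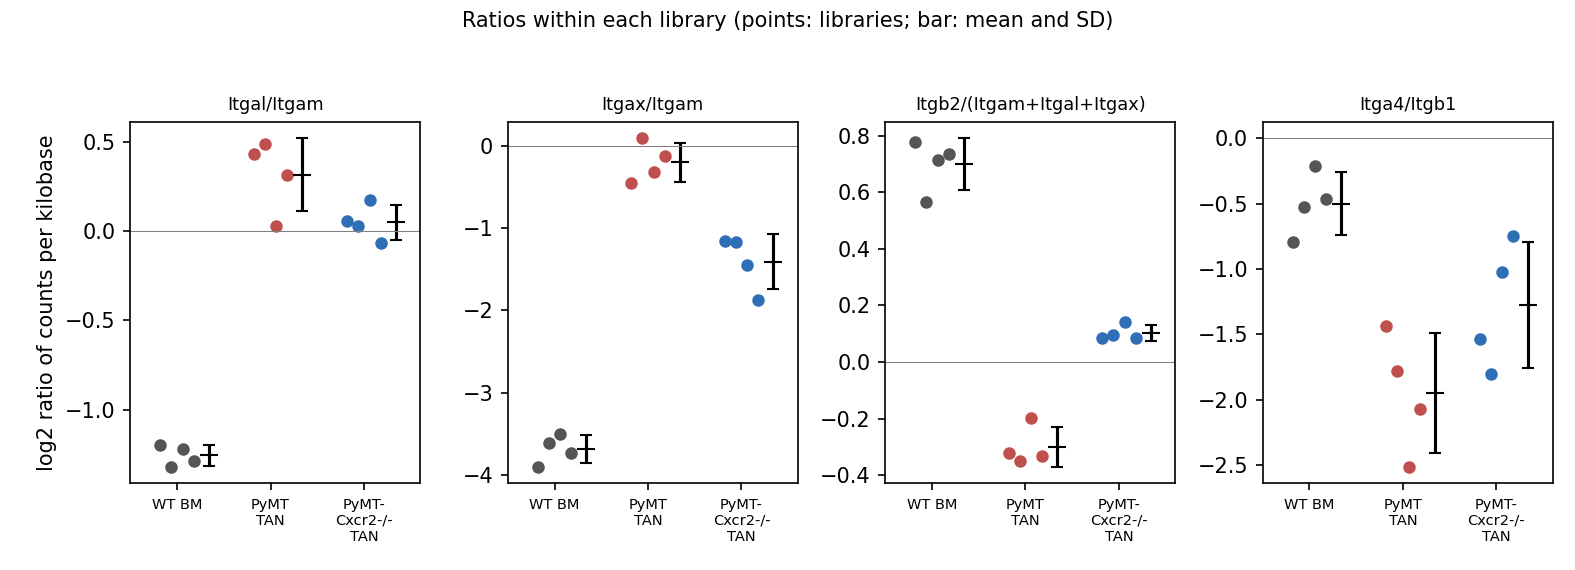
Log2 ratio of counts per kilobase within each library for 4 sets of genes, with 1 point per library, the mean and SD of 4 libraries as a bar and a grey line at equal levels. The TAN groups stood apart from marrow in 3 of the 4 ratios, and Itgax/Itgam and Itgb2/(Itgam+Itgal+Itgax) also separated the TAN groups.

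Per kilobase of unshared exon, Itgb2 was the highest of the 9 genes in each group, with a mean of 917 CPM per kilobase in marrow, 244 in PyMT TANs and 405 in PyMT-Cxcr2-/- TANs. In marrow the order below it was Itgam (377), Cd44 (292), Selplg (185), Itgal (158), Itgax (29.3), Itgb1 (12.3), Itga4 (8.72) and Icam1 (1.12), and of these neighbors only Selplg and Itgal overlapped. In PyMT TANs it was Cd44 (237), Selplg (129), Itgal (121), Itgam (96.4), Itgax (83.2), Icam1 (58.8), Itgb1 (53.5) and Itga4 (13.99). There Itgb2 overlapped Cd44, and each gene from Selplg to Icam1 overlapped the next, so that only the steps below Cd44 and below Itgb1 were wider than the spread. In PyMT-Cxcr2-/- TANs it was Cd44 (272), Selplg (176), Itgal (162), Itgam (157), Itgax (58.0), Itgb1 (37.8), Icam1 (30.9) and Itga4 (15.7), with overlap between Selplg and Itgal, Itgal and Itgam, and Itgb1 and Icam1. The place of Itgam rests on the unshared bases. It was the second in marrow and the fifth in both TAN groups, and on its total exon length it was at 118, 30.2 and 49.2 CPM per kilobase in marrow, PyMT TANs and PyMT-Cxcr2-/- TANs, which is place 5, 8 and 6.

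Within groups, the levels of some of these genes rose and fell together from library to library. Over the 12 libraries, deviations of log2 CPM from the group mean had a Pearson correlation of 0.94 between Itgam and Itgb2, 0.92 between Itgb2 and Selplg, 0.92 between Itgb2 and Itgal, and -0.54 between Itga4 and Itgb1. The libraries share their scaling and cell composition, and these values are a description. Among 5559 genes whose mean log2 CPM was 4 or more, the gene closest to each was sought by the root-mean-square difference of centered log2 CPM over the 12 libraries. Itgam was closest to Lbr (0.07) and then to Itgb2 (0.09), Itgb2 to Pirb and Arhgap9 (0.08 each), Itgal to Sorl1 (0.07) and Srf (0.09), Selplg to Sema4a (0.05) and Ggt5 (0.09), and Cd44 to Ptprc (0.06) and Btbd7 (0.07). Itgax was closest to Slf2 (0.14), Itga4 to Ric1 (0.11) and Tra2a (0.13), and Itgb1 to Ptma (0.13) and Naaa (0.14). Icam1 had no gene as near, with Tgif1 (0.38) and Tgm2 (0.40) the closest.

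Around these 9 genes, 87 others of the adhesion machinery were listed by role. Against marrow, 24 of 81 tested rose and 29 fell in PyMT TANs, and 30 rose and 25 fell in PyMT-Cxcr2-/- TANs, beside the shares of all genes given above. Between the TAN groups, 4 of 83 rose and 1 fell, beside 1.38% and 0.596% of all genes.

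The genes that switch integrins on and tie them to actin were mostly lower in the tumor. Of all genes tested, 23.2% fell in PyMT TANs and 25.1% in PyMT-Cxcr2-/- TANs. Of 15 tested, 11 fell and 0 rose in PyMT TANs with edgeR, with DESeq2 or at an unadjusted p under 0.05, with a median log2 fold change of -0.99, and 1 rose and 8 fell in PyMT-Cxcr2-/- TANs, with a median of -0.67. Lims1 (PINCH-1, an adaptor of the integrin tail) was at 743 to 867 CPM in marrow, 102 to 120 CPM in PyMT TANs and 121 to 210 CPM in PyMT-Cxcr2-/- TANs, and it fell by 2.76 (SE 0.12) and 2.27 (SE 0.16) on the log2 scale. Vcl (vinculin) fell by 2.13 (SE 0.12) and 1.73 (SE 0.15), Parvg (gamma-parvin) by 1.85 (SE 0.17) and 1.37 (SE 0.10), and Tln1 (talin, which opens the integrin from inside the cell) by 1.48 (SE 0.24) and 0.67 (SE 0.17). Fermt3 (kindlin-3), the partner of talin at the beta2 tail, fell by 1.43 (SE 0.16) and 0.76 (SE 0.11). Between the TAN groups the median of this list was 0.41, with 7 of the 14 genes tested higher without Cxcr2 and not overlapping, beside 6.89% of all genes, and Cyth1 (cytohesin-1, which binds the Itgb2 tail) passed both thresholds. Cyth1 was at 164 to 175 CPM in PyMT-Cxcr2-/- TANs, 90.6 to 113 CPM in PyMT TANs and 98.8 to 122 CPM in marrow.

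Of 10 kinases and signaling enzymes below the integrins that were tested, 5 fell in PyMT TANs, and 3 fell and 1, Syk, rose in PyMT-Cxcr2-/- TANs. Of all genes tested, 23.2% fell in PyMT TANs, and 25.1% fell and 34.4% rose in PyMT-Cxcr2-/- TANs. The 3 of 10 that fell are near the share of all genes. Plcg2, a phospholipase C, fell by 1.66 (SE 0.17) and 0.75 (SE 0.13) on the log2 scale, and it was the gene of this list that differed between the TAN groups, at 252 to 345 CPM without Cxcr2 and 128 to 205 CPM with it. Pik3cg, a PI3 kinase activated by chemokine receptors, fell by 1.49 (SE 0.14) and 1.06 (SE 0.13).

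Other integrin chains mostly rose against marrow, where 30.1% of all genes rose in PyMT TANs and 34.4% in PyMT-Cxcr2-/- TANs. Of the alpha chains, 8 of 12 tested rose and 1 fell in PyMT TANs, and 11 of 13 rose and 1 fell in PyMT-Cxcr2-/- TANs. Itga5, the fibronectin receptor chain that pairs with Itgb1, was at 6.77, 6.41, 5.34 and 4.30 CPM in marrow, 132, 151, 121 and 128 CPM in PyMT TANs, and 95.8, 95.7, 71.3 and 68.6 CPM in PyMT-Cxcr2-/- TANs. It was the integrin chain whose TAN groups differed past both thresholds, with a log2 fold change of -0.72 (SE 0.15, edgeR adjusted p = 0.038), the direction of Itgb1. Itga9 was at 23.2 to 57.4 CPM in TANs and 0.0559 to 0.180 CPM in marrow, and Itga3, a laminin receptor chain of epithelium, at 0.977 to 6.58 CPM in TANs and 0 to 0.0571 CPM in marrow. Itga8 was the alpha chain that fell, by 2.21 (SE 0.46) and 1.53 (SE 0.17).

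Of the other beta chains, Itgb4, Itgb8 and Itgb5 rose and Itgb3 and Itgb7 fell in both comparisons with marrow, among 6 and 5 tested. Over all genes, 30.1% and 34.4% rose and 23.2% and 25.1% fell. Itgb4, of the hemidesmosomes of epithelium, was at 5.10 to 23.6 CPM in TANs and 0 to 0.0623 CPM in marrow. Itgb5 was at 117 to 264 CPM in TANs and 3.35 to 7.40 CPM in marrow, and Itgb3 at 10.4 to 26.5 CPM in TANs and 94.6 to 150 CPM in marrow. The summed markers of epithelium and macrophages, given above, were also higher in TANs than in marrow, and their part in these levels was not tested.

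Selp and Sele, the selectins best known from platelets and endothelium, were low, at 5.22 to 25.2 CPM in all libraries, and both rose in PyMT-Cxcr2-/- TANs against marrow. Fut7, the fucosyltransferase that makes sialyl Lewis x on Selplg, was at 40.8, 32.9, 30.7 and 32.9 CPM in marrow, 3.02, 3.85, 1.36 and 0.637 CPM in PyMT TANs, and 2.59, 2.89, 6.004 and 4.63 CPM in PyMT-Cxcr2-/- TANs. It fell by 3.88 (SE 0.45, edgeR adjusted p = 2.6e-05) and 2.97 (SE 0.24, edgeR adjusted p = 2.1e-07) on the log2 scale, where Selplg itself changed by under 1.5-fold. Fut4 and C1galt1, which act on the same glycans, fell in both comparisons by 0.93 to 1.58. In each, 4 of the 10 enzymes fell, beside 23.2% and 25.1% of all genes. 1 enzyme rose in PyMT TANs and 2 in PyMT-Cxcr2-/- TANs, beside 30.1% and 34.4% of all genes.

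Of the immunoglobulin superfamily and junction molecules, 6 of 10 tested rose and 3 fell in PyMT TANs, and 5 rose and 3 fell in PyMT-Cxcr2-/- TANs. Over all genes, 30.1% and 34.4% rose and 23.2% and 25.1% fell. Vcam1, the ligand of VLA-4, was at 20.1 to 68.6 CPM in PyMT TANs, 16.1 to 41.2 CPM in PyMT-Cxcr2-/- TANs and 3.16 to 7.41 CPM in marrow, whereas Icam2 was at 1.27 to 2.06 CPM in TANs and 7.18 to 9.47 CPM in marrow. F11r (JAM-A) was at 15.7 to 35.2 CPM in TANs and 0.210 to 0.400 CPM in marrow. Ceacam1, an inhibitory adhesion receptor of neutrophils, was at 530.5 to 682 CPM in marrow, 38.8 to 48.9 CPM in PyMT TANs and 86.8 to 148 CPM in PyMT-Cxcr2-/- TANs, and it differed between the TAN groups by 1.16 on the log2 scale (SE 0.19, edgeR adjusted p = 0.014).

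Of 5 proteases that shed adhesion molecules or cut matrix, Adam17, which sheds many surface proteins of leukocytes, rose by 0.69 (SE 0.11) and 1.12 (SE 0.12) against marrow. Mmp9 fell by 2.75 (SE 0.27) and 1.51 (SE 0.20), and Mmp14 was at 35.6 to 78.9 CPM in TANs and 0 to 0.124 CPM in marrow. Adam8 was at 935 to 1281 CPM in PyMT TANs, 1804 to 2434 CPM in PyMT-Cxcr2-/- TANs and 1854 to 2219 CPM in marrow, and it differed between the TAN groups by 0.98 (SE 0.15, edgeR adjusted p = 0.012). Of 11 genes listed around Cd44, the hyaluronan synthase Has2 was at 19.3 to 29.6 CPM in marrow and 0 to 2.46 CPM in TANs. Stab1, a receptor of macrophages, rose by 3.17 (SE 0.29) and 3.40 (SE 0.24).

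**Figure D4:**
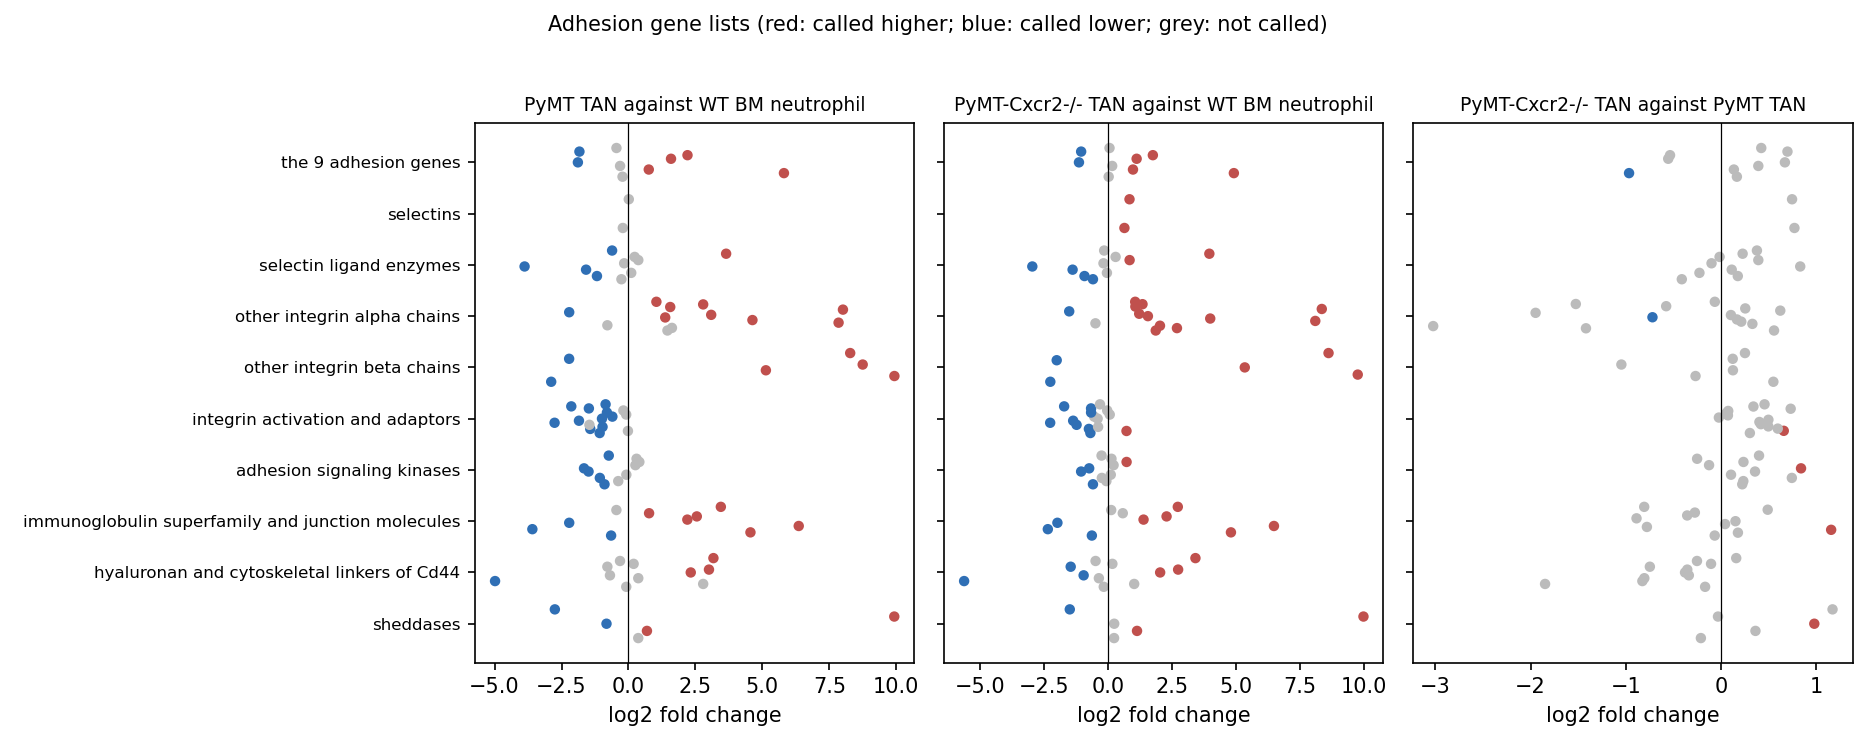
Log2 fold change of each gene tested from the 9 genes and the 9 role lists around them, in 3 panels with separate scales for the 3 comparisons, with red points higher and blue points lower past both thresholds. The activation and adaptor genes lie to the left in both comparisons with marrow, with 11 and 8 called lower, the other alpha chains to the right, with 8 and 11 called higher, and between the TAN groups 6 points are colored in all.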

How the data were processed

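RNA-seq libraries of sorted neutrophils were used, 4 each of PyMT TANs, PyMT-Cxcr2-/- TANs and WT BM neutrophils. The deposited values are raw counts per gene, which the authors obtained with HTSeq from STAR alignments to mm10. Their libraries were directional, made after removal of ribosomal RNA, and the paired-end reads were trimmed before alignment. The annotation release, the overlap mode and the strand setting of the counting are not given in the sources used here, so overlapping genes are uncertain. Of 55335 Ensembl identifiers, 55154 matched GENCODE M21. Reads that matched no gene, 32.0% to 42.4% of a library's records in marrow and 39.9% to 52.5% in TANs, stayed out of totals and tests. Counting error is small at 25032704 to 51351569 assigned reads per library.

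Each comparison was fitted with edgeR 4.0.16 in R 4.3.3 on its 8 libraries, with TMM, filterByExpr and the robust quasi-likelihood test. The standard error is the size of the log2 fold change over the square root of F. CPM use TMM factors over the 12 libraries, and log2 CPM a prior count of 2. Ratios within a library had 0.5 counts added. The procedure was tested on simulated counts with known changes. Alternatives were RLE and upper quartile scaling, other filters, the adjusted p alone, non-robust estimation, a single fit of 12 libraries, removal of GC and length trends, DESeq2 1.42.0, a replicate block and the omission of each library. Leaving out 4 TAN libraries and the use of total exon length for ratios and ranks were chosen after seeing the data.

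The 9 genes, the role lists and the marker lists were chosen with earlier results of these data known. The genes named are the 9, Cxcr2, per role list and comparison up to 4 genes past the thresholds, by size of change, with an average log2 CPM of at least 1, markers of the lists reported, and for likeness the 2 nearest genes. Some results that this rule covers are not reported here. Itga8, Itgb7, Icam2 and the overlapping genes were named after their values were seen.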

Additional observations from a re-analysis of the deposited data

Results flagged for a closer look

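In WT BM neutrophils the Icam1 level of replicate 3 (4.06 CPM) lay apart from the other three (5.11 to 5.17 CPM), with a gap of 0.953 of the range of the group. Of 30 groups tested this way, chance alone is expected to flag about 1 in 20. The difference between PyMT TANs and PyMT-Cxcr2-/- TANs is at the same time the test of whether their changes against the shared marrow libraries differ. By that test 1 of the 9 genes and 5 of the 83 role list genes tested passed both thresholds with edgeR, beside 1.98% of all genes tested. With the replicate block, given below, 0 of either were called. Icam1 (-0.97) and Itga5 (-0.72) were lower without Cxcr2 on the log2 scale, and Cyth1 (0.66), Plcg2 (0.84), Ceacam1 (1.16) and Adam8 (0.98) were higher.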

How the results depend on the processing

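Against marrow, the counts of genes called and of the 9 genes called stayed within 1.5 times their values under every alternative run, with 6 to 7 of the 9 called in PyMT TANs and 5 to 6 in PyMT-Cxcr2-/- TANs. Between the TAN groups the calls depended on the fit. 365 genes were called (69.9% of them higher), with 1 of the 9 genes and 5 genes of the role lists. These were 594, 3 and 9 without the filter on low counts, 886, 3 and 9 with all 12 libraries in one fit, and 1034, 3 and 12 with DESeq2. They were 13, 0 and 0 with the replicate block (30.8% higher), 189, 1 and 2 with GC content and length adjusted (58.7% higher), 14, 0 and 0 with both (42.9% higher), and 15, 0 and 0 without the 4 TAN libraries with the highest epithelial markers. With 1 library left out they ranged from 23 to 513, from 0 to 2 and from 0 to 6, the lowest without PyMT replicate 2. The cause was not tested. The labels do not say that equal replicate numbers pair the samples. Same-numbered libraries of the TAN groups had a mean correlation of deviations of -0.14 (other numbers 0.05). In the comparisons with marrow, same-numbered libraries were at -0.04 and 0.05. Deviations from group means tie the values for same and other numbers together, so these correlations cannot decide whether the numbers pair the samples. Under the replicate block the log2 fold change of Icam1 was -0.99 (edgeR adjusted p = 0.11) between the TAN groups, beside -0.97 without it.

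In PyMT-Cxcr2-/- TANs against marrow, small values changed sign. Selplg was at -0.088 and Cd44 at -0.12 with 12 libraries in one fit. With GC content and length adjusted, Itgal, Selplg and Cd44 were at -0.24, -0.19 and -0.26, and at -0.26, -0.19 and -0.27 with the block as well, where the median of all genes went from 0.09 to -0.08 and -0.09. With 1 library left out, Selplg ranged from -0.016 to 0.136 and Cd44 from -0.071 to 0.103, with Selplg below 0 without PyMT-Cxcr2-/- replicate 4 or WT BM replicate 3, and Cd44 without either of these or WT BM replicate 4. At 142 to 183 counts in marrow, the Icam1 fold has the largest counting error of the 9 genes.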
